A study of Homo sapiens with 6 samples.

Results

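Before a cell copies its DNA it licenses its replication origins, and during S phase it fires them. In licensing, the origin recognition complex (ORC) and the loader proteins CDC6 and CDT1 place the MCM helicase on DNA in an inactive form. Geminin, encoded by GMNN, binds CDT1 after S phase has begun and so blocks a further round of loading. In firing, CDC45 and the GINS complex, which holds 1 copy of each of GINS1 to GINS4, join the MCM ring and form the active CMG helicase. Most of these genes are known to be transcribed late in G1 under E2F transcription factors, so their transcripts mark proliferating cells.

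The 10 genes examined here are ORC1, ORC6, CDC6, CDT1, GMNN, CDC45, GINS1, GINS2, GINS3 and GINS4, taken by their symbols out of the 54259 gene symbols of the count table. RNA of MDA-MB-231 cells, an established human breast cancer line, was sequenced in 6 libraries. In the 3 shBry libraries the cells held a hairpin RNA directed at brachyury, a T-box transcription factor, and in the 3 shNC libraries they held a control hairpin. The hairpin used in this line, and whether each arm was 1 clone or a pool, are not given in the sources used here. The labels do not say whether the 3 libraries of a group came from separate cultures, so the p-values measure only the spread between these libraries. Levels are given as CPM, the counts scaled to a common library size after TMM correction, and every fold change compares shBry with shNC as the reference. Differences were tested over 15277 genes with the quasi-likelihood method of edgeR. A gene was called where its p, adjusted by Benjamini-Hochberg (BH), was below 0.05 and its fold change above 1.5, the limit of the study's methods.

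The libraries held between 19319411 and 22985371 counts. Brachyury, listed as T, had 0 counts in all 6 libraries, so the hairpin's target could not be used to check the labels. In the library with the fewest counts such a 0 is compatible with 0.162 CPM or less (3 counts), for counting error only. The series text calls the RNA pericardial. The 6 mesenchymal markers of MDA-MB-231 summed to 5038 to 5261 CPM in shBry and 5481 to 5703 in shNC, most of it from VIM. Of these, CAV1 was called lower and ZEB1 higher, with log2 fold changes of -1.11 and 0.67. Of 6 epithelial and luminal markers 3 had enough counts to be tested, with sums of 16.6 to 19.4 and 11.9 to 15.4 CPM, and CDH1, ESR1 and PGR had at most 2 counts in any library. The 6 leukocyte markers summed to at most 0.108 CPM in shBry and 0.229 in shNC, with PTPRC and TYROBP at 0 in each library. The 8 fibroblast and pericardial markers summed to 65.2 to 72.9 and 47.2 to 59.5 CPM, nearly all of it from MSLN and COL1A1, with DCN at 0.

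The licensing and firing genes did not move as 1 block. Of the 10 genes, 7 fell in shBry cells: ORC1, CDT1, GMNN, CDC45, GINS1, GINS2 and GINS4. GINS3 was lower by less than the fold change limit, and CDC6 and ORC6 did not pass the test. Over all tested genes 15.2% were called lower, 17.1% were called higher, and 32.4% were called in either direction. The number of members called higher was 0 in edgeR, as it was at an unadjusted p, in DESeq2 and in limma-voom. The median log2 fold change of the 10 genes was -1.08, against 0.03 for all tested genes. The 10 genes together held 632 to 641 CPM in the shNC libraries and 337 to 380 CPM in the shBry libraries. In bulk RNA, fewer cells in the phase that transcribes these genes and less RNA per cell cannot be told apart.

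**Figure D1:**
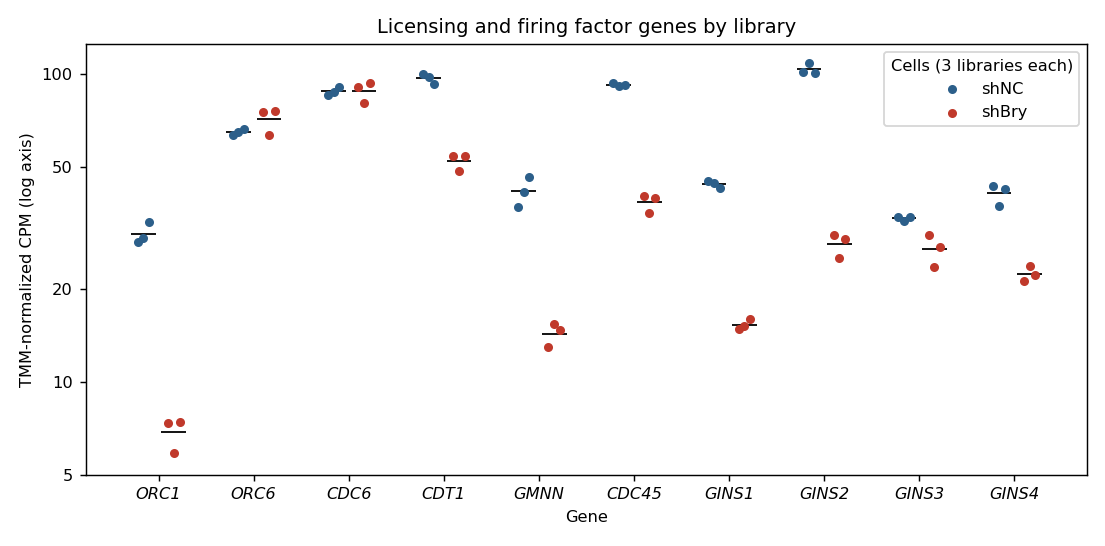
TMM-normalized CPM (log axis) of the 10 licensing and firing genes in each of 3 shNC (blue) and 3 shBry (red) libraries, with the group mean as a black line. The groups lie apart for 8 genes, against 59.5% of all tested genes, and overlap for ORC6 and CDC6.

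The origin recognition complex marks origins, and its largest subunit ORC1 is the one known to come and go with the cell cycle in human cells. The gene ORC1 lies on the minus strand of chromosome 1, between 52372829 and 52404459 (GRCh38). It had 7.38, 5.90 and 7.40 CPM in shBry replicates 1, 2 and 3, from 137, 140 and 167 counts. The shNC libraries had 28.5, 29.3 and 33.1 CPM, from 623, 619 and 661 counts. The highest shBry library thus lay far below the lowest shNC library. The log2 fold change was -2.14 (standard error, SE, 0.14, BH-adjusted p = 1.57e-08 by edgeR), which left 22.7% of the shNC level. This was the largest change among the 10 genes, and 0.668% of all tested genes had a log2 fold change as low or lower.

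ORC6, the smallest subunit, lies on chromosome 16 from 46689643 to 46698394. It had 75.4, 63.6 and 76.0 CPM in the shBry libraries and 63.3, 64.7 and 66.1 CPM in the shNC libraries. The groups overlapped, since shBry replicate 2 lay within the range of shNC. The log2 fold change of 0.15 had a 95% interval from -0.05 to 0.34 (BH-adjusted p = 0.194 by edgeR), an interval that leaves out a fall of the size seen for ORC1. Of its stretches of 50 transcript bases, 12.2% also occur in transcripts of other genes, so a part of its reads could have been assigned elsewhere.

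The other subunits had lower levels per length than ORC6 in both groups. As TMM-normalized CPM per kilobase of merged exons, ORC6 had 15.02 ± 0.324 in shNC (SD, n = 3) and 16.6 ± 1.63 in shBry, and ORC1 had 9.60 ± 0.777 and 2.18 ± 0.272. ORC2, ORC3, ORC4 and ORC5 had 4.07 ± 0.542, 4.78 ± 0.481, 1.58 ± 0.408 and 2.80 ± 0.610 CPM per kilobase in shNC. In shBry the same genes had 5.34 ± 1.15, 3.11 ± 0.507, 2.10 ± 0.643 and 4.31 ± 0.334. The level of ORC6 depends on the length used, with 35.3 ± 0.761 CPM per kilobase of its longest transcript in shNC and 39.1 ± 3.83 in shBry. By both lengths, ORC1 stood second among the 6 subunits in shNC, and in shBry its level lay within the spread of ORC4. The lowest subunit in shBry was ORC4 by merged exons and ORC1 by the longest transcript. By the longest transcript, ORC1 had 2.18 ± 0.272 CPM per kilobase in shBry and ORC4 had 2.79 ± 0.854. Of these 4 genes, ORC3 fell with a log2 fold change of -0.62 (BH-adjusted p = 0.0027) and ORC5 rose with 0.62 (BH-adjusted p = 0.0046, both by edgeR). ORC2 had 0.39 (BH-adjusted p = 0.0384, under the fold change limit) and ORC4 had 0.42 (BH-adjusted p = 0.112 by edgeR). The calls of these subunits rested on single libraries: without shBry replicate 3 the log2 fold change of ORC3 was -0.50 and that of ORC5 was 0.57, and without shNC replicate 1 that of ORC5 was 0.46, all under the limit. Without shBry replicate 1, ORC4 had 0.59 and was called higher.

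CDC6 is the ATPase that joins ORC at the origin and recruits the MCM ring with CDT1. It lies on chromosome 17 from 40287633 to 40304657. CDC6 had 90.9, 80.7 and 93.4 CPM in the shBry libraries, from 1689, 1914 and 2106 counts. The shNC libraries had 85.4, 87.6 and 90.7 CPM, from 1865, 1853 and 1811 counts, so the 3 shNC values lay inside the range of shBry. Its log2 fold change was 0.01 with a 95% interval from -0.18 to 0.19 (BH-adjusted p = 0.955 by edgeR), and its sign turned with library totals in place of TMM, with DESeq2's size factors and in DESeq2. This interval leaves out a change as large as the 1.5-fold limit in either direction.

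CDT1, the partner of CDC6 in loading, lies on chromosome 16 from 88803213 to 88809258. Its values were 54.2, 48.5 and 54.3 CPM in shBry and 100.1, 98.0 and 92.5 CPM in shNC. Each shBry library lay far below the lowest shNC library, with a log2 fold change of -0.89 (SE 0.09, BH-adjusted p = 1.12e-06 by edgeR), which left 54.0% of the shNC level. Per length, CDC6 had 15.8 ± 0.475 CPM per kilobase in shNC and CDT1 had 29.03 ± 1.17, while in shBry CDC6 had 15.9 ± 1.21 and CDT1 had 15.7 ± 0.998. Per kilobase of the longest transcript, CDC6 had 18.3 ± 0.549 and CDT1 had 29.9 ± 1.21 in shNC, and 18.4 ± 1.40 and 16.1 ± 1.03 in shBry.

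Geminin is the inhibitor of CDT1, and its protein builds up from S phase until mitosis. GMNN, on chromosome 6 from 24774931 to 24786099, had 12.97, 15.4 and 14.7 CPM in the shBry libraries and 37.0, 41.5 and 46.4 CPM in the shNC libraries. The highest shBry value stayed under the lowest shNC value by a wide margin. The fall was -1.53 on the log2 scale (SE 0.12, BH-adjusted p = 1.51e-07 by edgeR), which left 34.6% of the shNC level. None of its stretches of 50 bases occurs in transcripts of other genes, and no other gene overlaps its exons.

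Since CDT1 and GMNN were both lower, their ratio was taken within each library, where library scaling has no effect. A shift of this ratio largely restates the fold changes of CDT1 and GMNN. The share of all gene pairs with ratios that lie apart between the groups was not computed. The log2 ratio of the count of CDT1 to that of GMNN was 2.06, 1.65 and 1.88 in the shBry libraries and 1.43, 1.24 and 0.996 in the shNC libraries. Every shBry library had the higher ratio. The mean was 1.86 ± 0.206 in shBry and 1.22 ± 0.220 in shNC (SD, n = 3), a difference of 0.64 (two-sided exact permutation test over 6 libraries, p = 0.1, which is the smallest this design allows; adjusted over 7 ratios, 0.1).

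CDC45 is recruited to the licensed MCM ring at the moment of firing. It lies on chromosome 22 from 19479459 to 19520612. CDC45 had 40.3, 35.4 and 39.7 CPM in the shBry libraries and 93.4, 91.3 and 91.8 CPM in the shNC libraries. The shNC values lay close together, and no shBry value came near them. Its log2 fold change was -1.26 (SE 0.09, BH-adjusted p = 3.95e-08 by edgeR), with 41.7% of the shNC level left. Per length, CDC45 had the highest level of the 10 genes in shNC, 32.4 ± 0.376 CPM per kilobase, within the spread of GINS2 at 31.7 ± 1.26. In shBry it had 13.5 ± 0.928, against 15.7 ± 0.998 for CDT1. Per kilobase of the longest transcript, CDC45 and GINS2 had 44.1 ± 0.512 and 38.7 ± 1.53 in shNC, and in shBry CDC45 had 18.4 ± 1.26 and stood above CDT1.

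GINS1 to GINS4 encode the 4 subunits of the GINS complex, which ties CDC45 to the MCM ring and to the leading-strand polymerase. GINS2, on chromosome 16 from 85676198 to 85690073 on the minus strand, had 30.04, 25.2 and 29.1 CPM in shBry and 101.6, 108.3 and 100.8 CPM in shNC. The groups lay far apart. Its log2 fold change was -1.88 (SE 0.09, BH-adjusted p = 1.57e-09 by edgeR).

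GINS1, on chromosome 20 from 25407727 to 25452628, had 14.9, 15.2 and 16.05 CPM in shBry and 45.0, 44.2 and 42.8 CPM in shNC. No shBry library came near the shNC libraries. Its log2 fold change was -1.52 (SE 0.10, BH-adjusted p = 3.23e-08 by edgeR). GINS4, on chromosome 8, had 21.3, 23.8 and 22.3 CPM in shBry and 43.2, 37.3 and 42.4 CPM in shNC. The groups again did not overlap, with a log2 fold change of -0.87 (SE 0.11, BH-adjusted p = 1.05e-05 by edgeR). Other genes overlap 23.6% of its exon bases on the opposite strand, so without a known strand setting a part of its counts is uncertain.

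GINS3, on chromosome 16 from 58295080 to 58406144, differed least between the groups among the 4 subunits. It had 29.9, 23.6 and 27.4 CPM in shBry and 34.4, 33.3 and 34.3 CPM in shNC. The groups did not overlap, but shBry replicate 1 lay near the lowest shNC value. Its log2 fold change of -0.33 had a 95% interval from -0.57 to -0.10 (BH-adjusted p = 0.0205 by edgeR), which lies wholly inside the 1.5-fold limit of -0.58. Another gene on the opposite strand overlaps 10.9% of its exon bases.

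**Figure D2:**
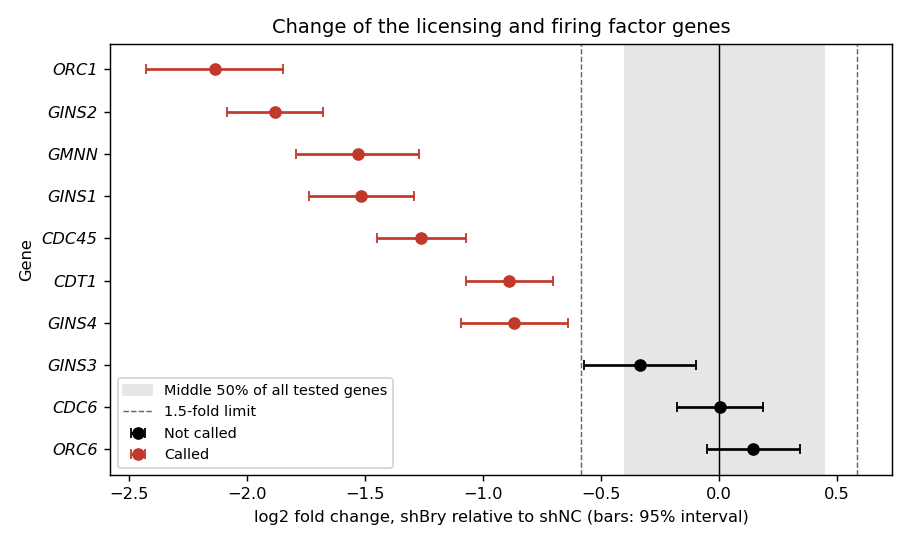
The log2 fold change of each gene in shBry relative to shNC, with its 95% interval from the edgeR fit, beside the middle 50% of all tested genes (grey, from -0.40 to 0.44). Called genes are red, and CDC6, ORC6 and GINS3 are black.

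Since the complex holds 1 copy of each subunit, the GINS genes were compared with each other in every library. In shNC, GINS2 made up 54.8% to 57.8% of the summed CPM per kilobase of the 4 genes, and GINS3 made up 11.4% to 12.0%. In shBry, the share of GINS2 was 37.8% to 40.7% and that of GINS3 was 22.7% to 25.9%. GINS4 made up 11.9% to 13.9% in shNC and 17.2% to 21.2% in shBry, while GINS1 made up 18.8% to 19.5% in shNC and 16.2% to 18.3% in shBry. The levels per length were thus closer together in shBry: the means of the 4 genes ran from 6.66 for GINS3 to 31.7 CPM per kilobase for GINS2 in shNC, and from 3.78 for GINS1 to 8.62 for GINS2 in shBry. The shares depend on the length used. Per kilobase of the longest transcript, GINS2 made up 51.55% to 54.65% in shNC and 34.12% to 36.67% in shBry. By that length GINS3 made up 14.02% to 14.77% in shNC and 26.72% to 30.5% in shBry. GINS4 was then the lowest in shNC, with 10.58 CPM per kilobase beside 10.61 for GINS3.

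**Figure D3:**
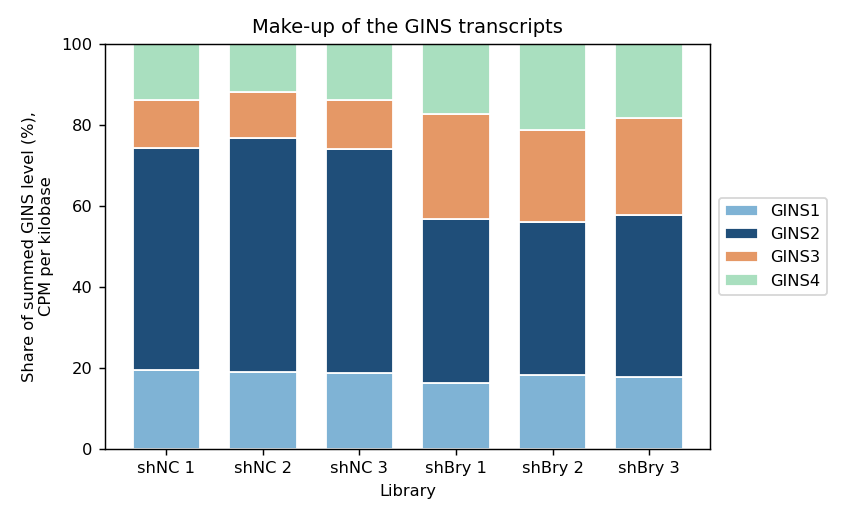
Share of each GINS gene (percent) in the summed CPM per kilobase of the 4 genes, as stacked bars for each of the 6 libraries. The share of GINS2 is 54.8% or more in the shNC libraries and 40.7% or less in the shBry libraries.

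The count ratios between GINS genes did not overlap between the groups in any of the 6 pairs. The 59.5% given above is for single genes, and the share for ratios of gene pairs was not computed. The 6 pairs share genes and so are not independent. Their shifts largely restate the fold changes of the single genes. The widest shift was that of GINS2 to GINS3. Its log2 ratio was 0.01, 0.09 and 0.09 in the shBry libraries and 1.56, 1.70 and 1.55 in the shNC libraries, a difference of -1.55. GINS2 had about as many counts as GINS3 in each shBry library and far more in each shNC library. The ratio of GINS1 to GINS3 differed by -1.18, that of GINS2 to GINS4 by -1.02 and that of GINS1 to GINS4 by -0.65. The ratio of GINS3 to GINS4 differed by 0.53 and that of GINS1 to GINS2 by 0.37. Each pair had p = 0.1 in the two-sided exact permutation test, the smallest value that 3 against 3 libraries can give, and 0.1 after adjustment over 7 ratios.

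**Figure D4:**
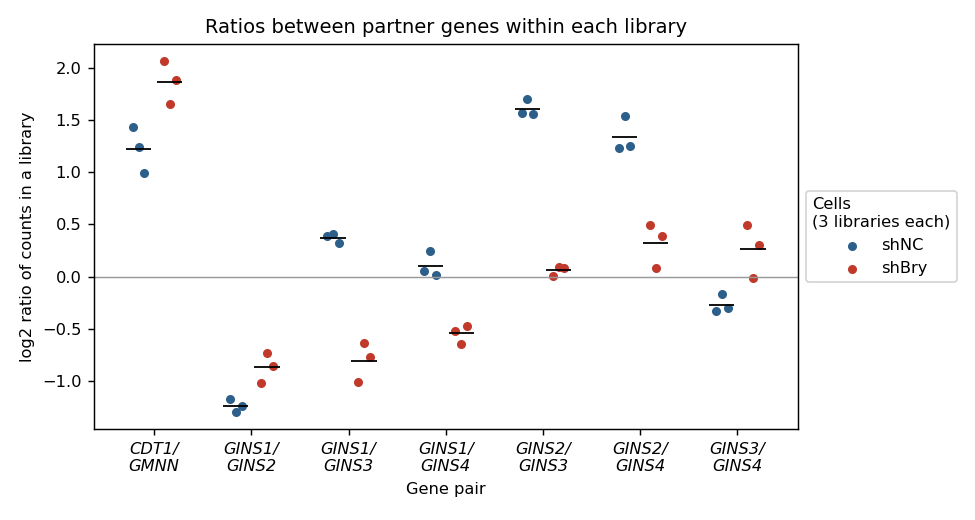
The log2 ratio of the counts of 2 genes within a library, for CDT1 to GMNN and for the 6 pairs of GINS genes, in 3 shNC (blue) and 3 shBry (red) libraries, with the group mean as a black line. The groups do not overlap in any of the 7 ratios, and the ratio of GINS2 to GINS3 has a mean of 1.61 in shNC and 0.06 in shBry.

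Of the 10 genes, 7 were called lower, GINS3 was lower by less than the limit, and CDC6 and ORC6 did not pass the test. Their promoters were therefore searched for the letters TTTCCCGC, TTTGGCGC, TTTCGCGC and TTTGCCGC, all known forms of the E2F site. Both strands were searched, with overlapping matches counted separately. The windows run from 250 bases before to 50 bases after a RefSeq start on GRCh38.p14, and 9 of the 10 genes had 12 windows. In bases before the start alone, 25% of member windows and 2.79% of all windows held a match. Over the whole window, a match was found in 6 of the 12 windows (50%), against 3.31% of all 35116 windows. The windows compared were not matched for base composition. The matches are shown as 30 bases on the strand of the gene, with the matched letters or their reverse complement in capitals, first for genes that were called lower and then for genes that were not called:
CDT1: ccagggcgcccGCGGGAAAtttggcgggaa
GMNN: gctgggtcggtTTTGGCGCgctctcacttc
GINS1: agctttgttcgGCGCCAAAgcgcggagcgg
GINS2: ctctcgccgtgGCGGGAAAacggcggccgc
GINS3: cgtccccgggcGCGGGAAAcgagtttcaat
CDC6: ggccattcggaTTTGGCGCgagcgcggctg

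These stretches lie at chr16:88803743-88803772 for CDT1, chr6:24775322-24775351 for GMNN, chr20:25407667-25407696 for GINS1 and chr16:85688967-85688996 for GINS2, which is on the minus strand. Those of GINS3 and CDC6 lie at chr16:58392455-58392484 and chr17:40287875-40287904. By GENCODE 29, the stretches of CDT1, GINS2, GINS3 and CDC6 are in noncoding exon bases of a transcript of the gene, that of GMNN is in an intron, and that of GINS1 is upstream of the annotated gene. GINS2, which fell most of these genes, GINS3, which was lower by less than the limit, and CDT1 hold the same 8 letters in capitals. GMNN and CDC6, with log2 fold changes of -1.53 and 0.01, also share their 8 letters, which GINS1 holds on its other strand. These letters were thus found both in genes that were called lower and in genes that were not called, and GINS4 had no window. The relation of the letters to the fold changes was not tested, and a match is not a binding site.

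ORC1, ORC6 and CDC45 had no match to these letters. Only these exact letters were searched, so the lack of a match does not show that an E2F site is absent. In the window of ORC1, the gene that fell most, and in that of ORC6, the last 30 bases before the start, at chr1:52404424-52404453 on the minus strand and chr16:46689629-46689658, are:
ORC1: cacgccgattggcgcgaagttttcttttct
ORC6: tggccggtgcagcctttgcgcgcgggtttc

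The CCAAT box, another element of cell cycle promoters, was found in 8 of the 12 windows (66.7%) against 34.6% of all windows, and it was present for both ORC1 and ORC6. TTTGAA, the letters of the cell cycle homology region, was found in 0 of 12 windows against 15.2% of all windows. Neither set of letters was tested against the fold changes.

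The other genes of the pathway were taken as 50 genes in 4 groups by role, listed with earlier results of these data known. GMNC, a relative of geminin, had at most 5 counts in any library and was not tested. Of the 49 tested genes 22 were called lower and 2 higher, together 49.0% against 32.4% of all tested genes, with a median log2 fold change of -0.37. Without shBry replicate 1, 4 were called higher, and without shBry replicate 3 or shNC replicate 1, 1 was called higher.

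Among 13 genes of origin recognition and MCM loading, 7 fell and 1 rose (61.5% called). All 6 genes of the MCM2 to MCM7 ring, the substrate of the loaders, were among those that fell, with a median log2 fold change of -1.58. MCM5, MCM4 and MCM2 had the smallest adjusted p, with log2 fold changes of -2.49, -1.69 and -1.64 (BH-adjusted p = 1.32e-10, 4.08e-10 and 1.58e-09 by edgeR). MCM6 fell least, with -0.70, and the gene that rose was ORC5. Among 14 genes of firing kinases and helicase activation, 9 fell and 5 were not called (64.3% called). RECQL4, a helicase needed for firing, fell with -1.52 (BH-adjusted p = 1.45e-08), CDK2, the S-phase kinase, with -0.81 (BH-adjusted p = 8.94e-07), and MCM10, which activates the CMG helicase, with -0.93 (BH-adjusted p = 3.44e-06, all by edgeR). Of the genes of proteins on which CDC45 is brought to origins, TOPBP1 had a log2 fold change of -0.31, TICRR -0.26 and MTBP -0.27, none of them called. DONSON and WDHD1, of the same role group, were called lower, with -0.79 and -1.07 (BH-adjusted p = 2.8e-05 and 8.7e-05 by edgeR). CDC7, the kinase that phosphorylates the MCM ring, fell with -0.81. Of its activators, DBF4B fell from 87.4 ± 2.27 to 51.3 ± 4.43 CPM (SD, n = 3) with -0.77 on the log2 scale (BH-adjusted p = 6.3e-06 by edgeR), and DBF4 had -0.18 (BH-adjusted p = 0.534 by edgeR), with shBry values of 12.5 to 20.1 CPM inside the shNC range of 11.6 to 24.4.

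Among 11 tested genes of CDT1 and geminin turnover, 3 fell and 8 were not called, so that 27.3% were called, below the 32.4% of all tested genes. SKP2, the F-box protein that marks CDT1 for destruction, had 92.7 ± 10.5 CPM in shNC and 24.1 ± 2.56 CPM in shBry (SD, n = 3), so that it fell with -1.94 on the log2 scale (BH-adjusted p = 5.39e-09 by edgeR). SKP1, its adaptor, fell with -0.67 (BH-adjusted p = 4.36e-05). FBXO5, the inhibitor of the ligase that degrades geminin, fell with -0.70 (BH-adjusted p = 0.00418 by edgeR), but without shBry replicate 1 or shNC replicate 3 it had -0.55 and -0.53, under the limit. The other route of CDT1 destruction, through DTL, CUL4A, CUL4B and DDB1, had log2 fold changes of -0.51, 0.12, -0.42 and -0.37, none of them past the limit. Among 11 genes of fork protection and checkpoint, 3 fell and 1 rose, a share of 36.4% called that is near that of all tested genes. TIMELESS, RAD9A and CLSPN fell with -1.12, -1.04 and -0.88 (BH-adjusted p = 5.03e-08, 1.04e-05 and 3.67e-05), and RAD17, a clamp loader of the checkpoint, rose with 0.77 (BH-adjusted p = 0.000845, all by edgeR).

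**Figure D5:**
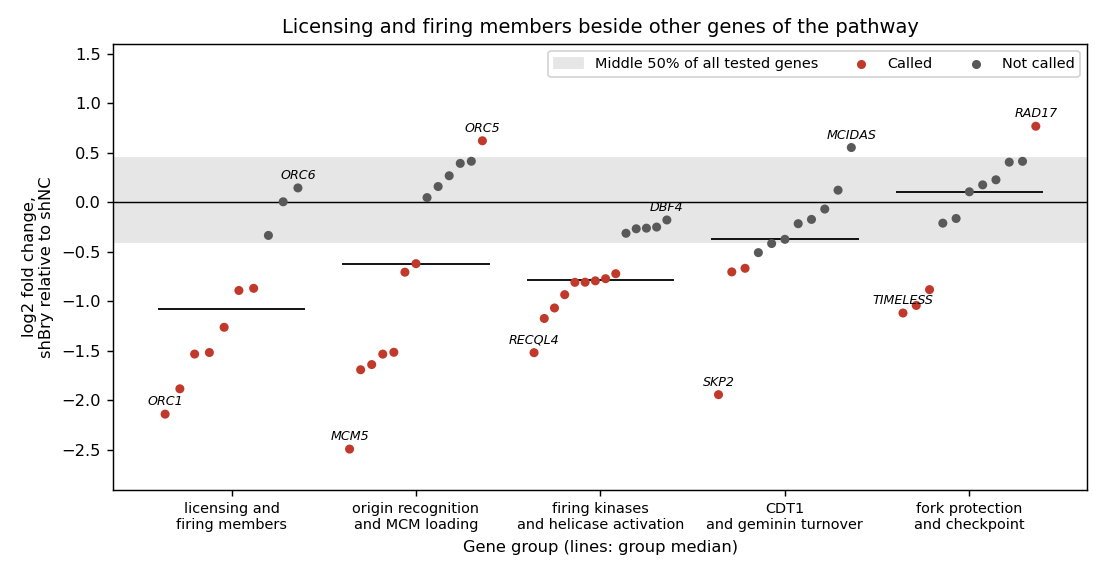
The log2 fold change in shBry relative to shNC of each tested gene, for the 10 licensing and firing genes and for the 4 groups of other pathway genes, with called genes in red, the group median as a line, and the middle 50% of all tested genes in grey. Group medians are -1.08, -0.62, -0.78, -0.37 and 0.11 from left to right.

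The tested genes whose profile over the 6 libraries lay closest to the median of the 10 genes were MDH1, HJURP, HSPA8, AURKB and VPS26B. Closeness was the root mean square difference of the log2 CPM, each taken relative to the shNC mean, among 9403 genes that averaged 10 CPM or more. It lay between 0.04 and 0.05 for these 5 genes, whose log2 fold changes ran from -1.16 for HSPA8 to -1.10 for HJURP. The genes were picked for this closeness, so their fold changes follow from the choice. Whether they share regulation with the 10 genes was not tested.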

How the data were processed

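The authors deposited raw counts of reads per gene symbol for 6 libraries, with no normalization. The submitters' processing notes name HISAT2 2.0.4, HTSeq and GRCh38. The annotation, the strand setting and the statistical test are not given in the sources used here. The members and lists were chosen with earlier results of these data known.

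Genes were filtered with filterByExpr (minimum count 10) and scaled with TMM. R 4.3.3 and edgeR 4.0.16 (glmQLFit, glmQLFTest) were used to compare shBry with shNC, which was checked on simulated counts first. The standard error is the log2 fold change divided by the square root of F. Alternatives were library totals, DESeq2 1.42.0 and its size factors, limma-voom (limma 3.58.1), other filters, thresholds, the replicate number as a block and each library left out.

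Locations, merged exon lengths, overlaps on either strand and shared stretches of 50 bases came from GENCODE 29 on GRCh38, matched by symbol for 10 of 10 genes. Promoter windows came from RefSeq (GRCh38.p14). Ratios used counts plus 0.5. Named genes were the members, ORC2 to ORC5, up to 3 called genes per direction and role group by adjusted p, and the 5 nearest profiles. MCM6, CDC7, DBF4, DBF4B, TOPBP1, TICRR, MTBP, DONSON, WDHD1, DTL, CUL4A, CUL4B and DDB1 were named after their values were seen.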

Additional observations from a re-analysis of the deposited data

How the results depend on the processing

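All 7 called members kept the call in each of 13 refits, 6 of them with 1 library left out. At a fold change limit of 2, CDT1 and GINS4 lost it. The log2 fold change of CDC6 turned negative in 9 of 13 refits: -0.0135 with library totals, -0.0140 with DESeq2's size factors, -0.0141 in DESeq2, -0.0186 without the filter, -0.00354 with at least 10 counts in every library, and from -0.0356 to 0.0539 with 1 library left out. With a limit of 2, 11 other pathway genes were called lower and 0 higher in edgeR. Without a limit 7 were called higher, and with 1 library left out 1 to 4. With the longest transcript as length, the highest level per length was 4.59 times the lowest in shNC and 17.9 times in shBry, in place of 4.86 and 7.62. In bases before the start alone, 25% of member windows and 2.79% of all windows held an E2F match. With the shorter letters TTTGGCG or TTCCCGC, chosen after the windows were seen, 58.3% of member windows, now with CDC45, and 8.27% of all windows did. Deviations from the group means of same-numbered libraries had correlations of 0.18, -0.08 and -0.03. Differently numbered libraries had correlations from -0.22 to 0.23. With 3 libraries per group, these values cannot decide whether the numbers pair the samples. With the replicate block, 4914 genes were called in place of 4945, among them 7 members. For the CDT1 to GMNN difference of 0.64, which the block cannot change, an exact sign-flip permutation test gave p = 0.25, the smallest that 3 pairs allow. T and GMNC did not pass the filter of the main fit, so neither was tested there. T had 0 counts in all 6 libraries, and a difference was not detectable at this depth. GMNC had 0, 1 and 0 counts in shBry and 2, 5 and 5 in shNC.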
